A study of Mus musculus with 16 samples.

Results

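The lungs of female Fra-2 transgenic (TG) mice were compared with those of female wild-type (WT) littermates at 8 weeks of age. The comparison takes in 8 of the 16 arrays of the series, TG replicates 1 to 4 and WT replicates 1 to 4, which were chosen by the letter f in their titles and fitted alone, and the 8 arrays of male TG and WT mice were used only where they are named. TG mice were hemizygous for a transgene that expresses Fra-2, on a mixed background that had been crossed back to C57BL6/J. The promoter that drives the transgene is not given in the sources used here. Total RNA from the homogenised right lung, which had been snap-frozen, was hybridised to single-colour Agilent arrays. The series states that the 4 arrays of a group are biological replicates, no label gives the identity of a mouse, and n counts arrays. A level is a log2 intensity, a fold change is the mean log2 level in TG minus that in WT with its standard error (SE), and 4 values after a group name run over replicates 1 to 4. Each of 24306 gene symbols was represented by 1 array feature, the brightest over all 16 arrays.

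Fra-2, the product of Fosl2, belongs to the Fos family of leucine zipper proteins and binds DNA as a dimer with a Jun protein. Such dimers make up the transcription factor AP-1, which binds a short palindromic DNA site and acts on cytokine, matrix and keratin genes and in the differentiation of lymphocytes and myeloid cells. Among the resident leukocytes of the lung, natural killer (NK) cells kill targets with granzymes and perforin and read MHC class I through receptors of the Ly49 family, which are encoded by the Klra genes. Alveolar macrophages clear surfactant and inhaled particles.

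Sex-linked genes separated the female from the male arrays. The X-inactivation transcript Xist lay between 6.65 and 7.72 in the 8 female arrays, against 2.55 to 3.77 in the 8 male arrays, and the Y-linked gene Uty lay between 2.66 and 4.09 in females and between 7.0 and 7.42 in males. The Y-linked Eif2s3y was at 5.62, 5.26, 4.0 and 6.17 in TG females, against 3.75 to 4.11 in WT females and 9.23 to 9.73 in males. The lung epithelial genes Sftpc, Sftpb, Ager and Scgb1a1 were near the top of the scale in all 8 arrays, and lists of liver and skeletal muscle genes had no member past the test. Pairwise correlations over all genes were between 0.953 and 0.989. The first principal component held 43.9% of the variance, with scores of -88.39, -24.14, 0.45 and -71.86 in TG lungs, against 37.07 to 52.22 in WT lungs. TG replicates 1 and 4 were thus the arrays farthest from the WT arrays. TG replicate 3 lay nearest to them and had a median correlation of 0.981 with the WT arrays, against a mean of 0.974 with the other 3 TG arrays. 

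In all, 2001 of 24306 genes (8.23%) passed limma's moderated test at an adjusted p under 0.05, of which 974 were higher (4.01% of genes tested) and 1027 were lower (4.23%) in TG lungs. Counts of called members in the gene lists below are to be read against these shares. At least a 2-fold difference was seen for 557 genes that were higher and 542 that were lower, and the median over all genes was -0.02. In 963 genes called higher and 1022 called lower the 4 TG arrays lay wholly on one side of the 4 WT arrays, whereas 20.8% of all genes showed such a separation in either direction. At an adjusted p under 0.01, 40 genes were higher and 40 were lower. The number of calls depended on single arrays. It was 832, 988, 3804 and 510 without TG replicate 1, 2, 3 or 4, and 124, 198, 495 and 158 without WT replicate 1, 2, 3 or 4. Of the 2001 genes, 109 were called in all 8 of these fits. All 2001 kept their sign in them, but this was close to fixed beforehand, since nearly all of them were separated on these same arrays. Of the 131 called genes that are named here, the fits without TG replicates 1 to 4 called 86, 90, 128 and 66, and those without WT replicates 1 to 4 called 32, 43, 71 and 37.

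The 4 TG arrays carried unequal shares of the response. In TG replicate 1, 2614 genes lay more than 1 log2 unit above the WT mean and 2719 lay more than 1 unit below it. These counts were 1320 and 1365 in TG replicate 2, 820 and 841 in TG replicate 3, and 2254 and 2481 in TG replicate 4. A WT array set against the mean of the other 3 gave 347 to 426 genes above and 254 to 511 below. Over the 974 genes called higher the median difference from WT was 1.26, 0.98, 0.76 and 1.24 in TG replicates 1 to 4, and over the 1027 genes called lower it was -1.23, -0.95, -0.68 and -1.22. Both medians describe genes that were chosen on these arrays. Genes called in the male arrays were chosen on other mice. Over the 39 genes higher in TG males the medians were 1.36, 1.1, 1.21 and 1.31 in the 4 TG female arrays, and over the 50 genes lower in TG males they were -2.25, -1.75, -1.6 and -2.08. TG replicate 3, in which fewest genes differed from WT, lay within the range of the other TG arrays for the genes higher in males and had the smallest fall for those lower in males. TG replicates 1 and 4 together lay at least 1 unit above all other 6 arrays in 161 genes and below them in 103, against 1 to 11 and 4 to 25 for every other pair of TG arrays.

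**Figure D1:**
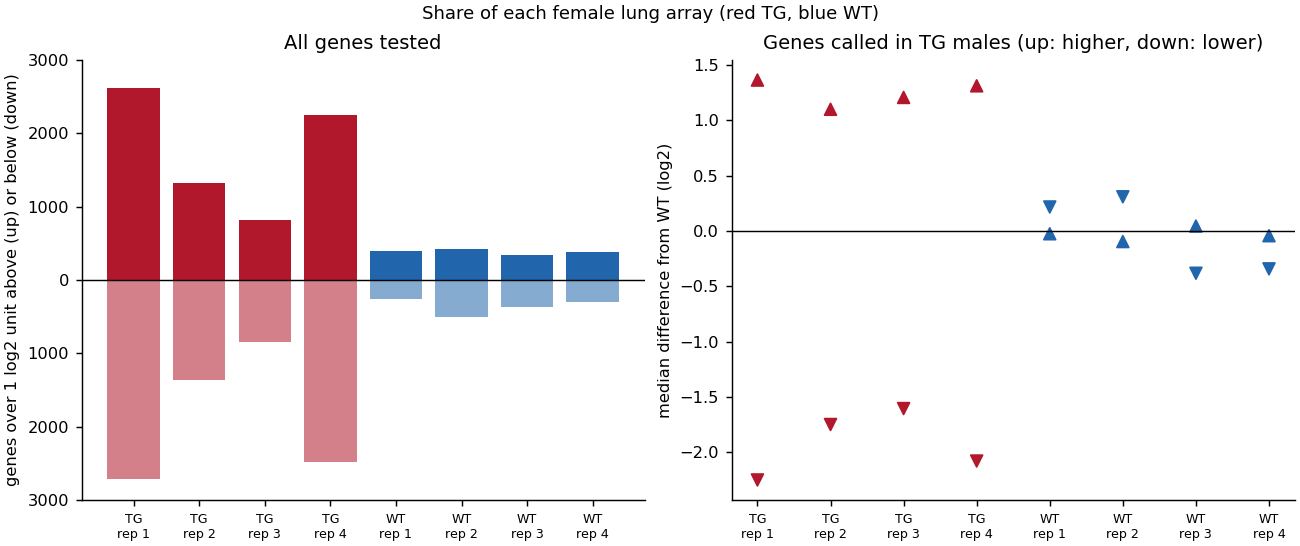
Left, the number of genes of each female array more than 1 log2 unit above or below the WT mean (for a WT array, the mean of the other 3). Right, the median difference of each array over the 39 genes higher and the 50 genes lower in TG males: TG replicates 1 and 4 hold the most genes, 2614 and 2254 above WT, whereas the medians over the male genes lie between 1.1 and 1.36 and between -2.25 and -1.6 in the 4 TG arrays.

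Without TG replicates 1 and 4, 203 genes were called, and 176 of them were among the 2001 (101 higher, 75 lower). All 2001 kept their sign, which was fixed beforehand, as TG replicates 2 and 3 each lay on the called side of the WT mean in every one of them. The mean level of the 8102 dimmest genes was 3.13, 3.07, 3.05 and 3.12 in TG lungs, against 3.04 to 3.06 in WT lungs, and that of all other genes was 8.43 to 8.47 in TG lungs, against 8.49 to 8.51 in WT lungs. The part of these shifts of level in the gene counts was not tested.

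The genes with the smallest p-values among those that rose were Pkn3, Rnf183 and Itga6, which were picked for this after their values were seen. Pkn3, a protein kinase of the PKN family, was at 12.5, 12.42, 12.23 and 12.69 in TG lungs, against 9.38, 9.71, 9.5 and 9.46 in WT lungs (2.95 ± 0.16, adjusted p = 0.00046). Rnf183, a membrane-bound ubiquitin ligase, was at 7.6, 7.78, 8.39 and 7.9 in TG lungs, against 4.26, 5.08, 4.6 and 4.37 in WT lungs (3.34 ± 0.24, adjusted p = 0.00156). Itga6, the integrin subunit that pairs with beta 4 to bind laminin, was at 14.29, 14.27, 14.39 and 14.56 in TG lungs, against 12.31, 12.31, 12.56 and 12.35 in WT lungs (2.0 ± 0.15, adjusted p = 0.00156). In all 3 genes the TG arrays lay close together, and TG replicates 1 and 4 did not stand apart. A choice by smallest p-value on these arrays favours genes with a small spread, so this follows in part from the choice. A further gene of this kind, Ildr2, had a fold change of 3.12, adjusted p = 0.00505. The fold changes in males were 2.51 for Pkn3, 2.65 for Rnf183, 1.64 for Itga6 and 2.91 for Ildr2, all past the test there. Pkn3, Rnf183, Itga6 and Ildr2 kept their calls in each of the 8 fits that left out 1 array, which a choice by small p-value also favours.

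The paper gives the AP-1 consensus as TGA-C/G-TCA. The 250 bases before each gene's start were searched for the letters TGANTCA in the RefSeq promoters of mouse build GRCm38.p6. This pattern reads the same on both strands and admits any middle base, so matches outside the consensus were also counted. A promoter was found for 756 of the 974 higher genes, and 51 of these (6.75%) held the letters. Of 816 promoters of the lower genes 64 did (7.84%), against 1448 of all 19217 promoters (7.53%). The share was thus slightly below that of all genes for the higher genes and slightly above it for the lower ones, and the difference was not tested. The promoters of Pkn3 and Rnf183, which rose in both sexes, and of Gzmb and Cxcl10, an NK cell effector and an NK-recruiting chemokine that fell, held a match. They are shown as examples of both directions, 5′ to 3′ on the strand of the gene, with the match in capitals.
Pkn3, chr2:30078540-30078606, plus strand: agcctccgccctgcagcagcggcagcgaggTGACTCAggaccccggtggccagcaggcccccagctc
Rnf183, chr4:62434641-62434705, minus strand: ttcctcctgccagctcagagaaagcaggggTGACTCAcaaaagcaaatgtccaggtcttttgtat
Gzmb, chr14:56262356-56262422, minus strand: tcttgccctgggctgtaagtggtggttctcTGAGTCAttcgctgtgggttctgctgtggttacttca
Cxcl10, chr5:92348927-92348993, minus strand: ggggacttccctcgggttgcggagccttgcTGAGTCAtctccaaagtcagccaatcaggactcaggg
The first base of the match lay 128 bases before the start of Pkn3, 35 before that of Rnf183, 58 before that of Gzmb and 74 before that of Cxcl10. Such a match is a stretch of letters and was not measured as a binding site.

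The array held 2 features for Fosl2, and they gave different answers. The brighter one was at 10.06, 9.16, 9.36 and 9.36 in TG lungs, against 9.28, 8.9, 9.82 and 9.36 in WT lungs (0.14 ± 0.26, adjusted p = 0.762), and its groups overlapped. The dimmer one was at 10.66, 7.93, 7.45 and 9.66 in TG lungs, against 3.25, 2.85, 3.02 and 3.78 in WT lungs. Its fold change was 5.7, with adjusted p = 0.007 when all features were tested. All 4 TG arrays read high on this feature and all 4 WT arrays read near the floor, so it separated the arrays by their genotype labels. Which transcripts either feature detects is not given in the sources used here. TG replicate 1 was highest on it, followed by replicates 4, 2 and 3, which is also their order of distance from WT on the first principal component.

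In 11 of the 12 largest rises the TG arrays stood in the order 1, 4, 2, 3 from highest to lowest. Clca1, a secreted protein of goblet cells, led them at 15.99, 9.42, 10.21 and 12.001 in TG lungs, against 6.32, 2.68, 3.3 and 5.6 in WT lungs (7.43 ± 1.41, adjusted p = 0.0236). It was the one exception to the order, as TG replicate 3 read above replicate 2. Syn3, a synaptic vesicle protein, was at 13.73, 10.17, 8.52 and 12.61 in TG lungs, against 5.64, 4.76, 6.15 and 5.15 in WT lungs (5.83 ± 1.0, adjusted p = 0.0187). Tbx22, a T-box transcription factor, was at 15.23, 12.55, 10.94 and 14.53 in TG lungs, against 7.35, 7.48, 8.03 and 7.72 in WT lungs (5.67 ± 0.82, adjusted p = 0.0129). Both therefore spanned more than 3 log2 units among the TG arrays alone. The other 9 were Shank2 (5.38, adjusted p = 0.0239), Lsamp (5.26, adjusted p = 0.0177), Cdcp1 (5.05, adjusted p = 0.0177), Rabgap1 (5.05, adjusted p = 0.0177), Opcml (4.93, adjusted p = 0.0129), Mrgprg (4.93, adjusted p = 0.0177), Cldn24 (4.85, adjusted p = 0.0187), Klra1 (4.76, adjusted p = 0.0172) and Ddx25 (4.73, adjusted p = 0.0172). Shank2, Lsamp and Opcml encode neuronal scaffold or adhesion proteins, Mrgprg a receptor of sensory neurons and Ddx25 a testis RNA helicase. This order held for 44 of 48 genes that rose more than 8-fold (91.7%), 197 of 509 that rose 2-fold to 8-fold (38.7%) and 86 of 417 that rose less (20.6%). The mirrored order, with replicate 1 lowest and replicate 3 highest, held for 0 of 18 genes that fell more than 8-fold. It held for 120 of 524 that fell 2-fold to 8-fold (22.9%) and 124 of 485 that fell less (25.6%). These genes were called and grouped by size on these same arrays, so the shares depend in part on that choice. The share over all genes was not counted.

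Most of the largest rises stood on a single feature. Of the 12 genes 10 had other features on the array, 24 in all, and none of these 24 was called higher. Their median fold change was 0.10, with a median level of 3.43 in TG lungs and 3.44 in WT lungs. One was called the other way: a feature of the Ly49 receptor gene Klra1 was at 7.73, 6.73, 7.36 and 6.32 in TG lungs, against 10.11, 10.74, 9.87 and 9.55 in WT lungs (-3.03, adjusted p = 0.00862 over all features), whereas the brightest Klra1 feature was at 14.52, 11.7, 10.57 and 13.8 in TG lungs, against 7.66, 7.87, 8.24 and 7.79 in WT lungs. The direction of Klra1 was thus not settled by its features. Over all 31 genes that rose more than 8-fold and had several features, 3 (9.68%) had another feature called higher and 3 had one called lower. Of 7 genes that fell more than 8-fold, 6 (85.7%) had another called lower. Among all called genes with several features, another was called the same way for 19.3% of 628 higher and 29.2% of 489 lower genes. For genes not called this share was 8.07%. The feature taken was the brightest over arrays that include TG. Many of the other features of the 12 largest rises lay near the floor in both groups and may not register a rise. Some were brighter and still not called higher. Cdcp1 had features at 7.67 and 6.80 in TG lungs, against 6.91 and 7.41 in WT lungs. A Rabgap1 feature was at 6.37, against 5.85. The other features of the 12 largest falls had a median WT level of 7.89. The calls of Clca1, Syn3, Tbx22, Shank2, Lsamp, Cdcp1, Rabgap1, Opcml, Mrgprg, Cldn24, Klra1 and Ddx25 were lost in at least 1 of the 8 fits that left out 1 array (highest adjusted p between 0.0508 and 0.0775).

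**Figure D2:**
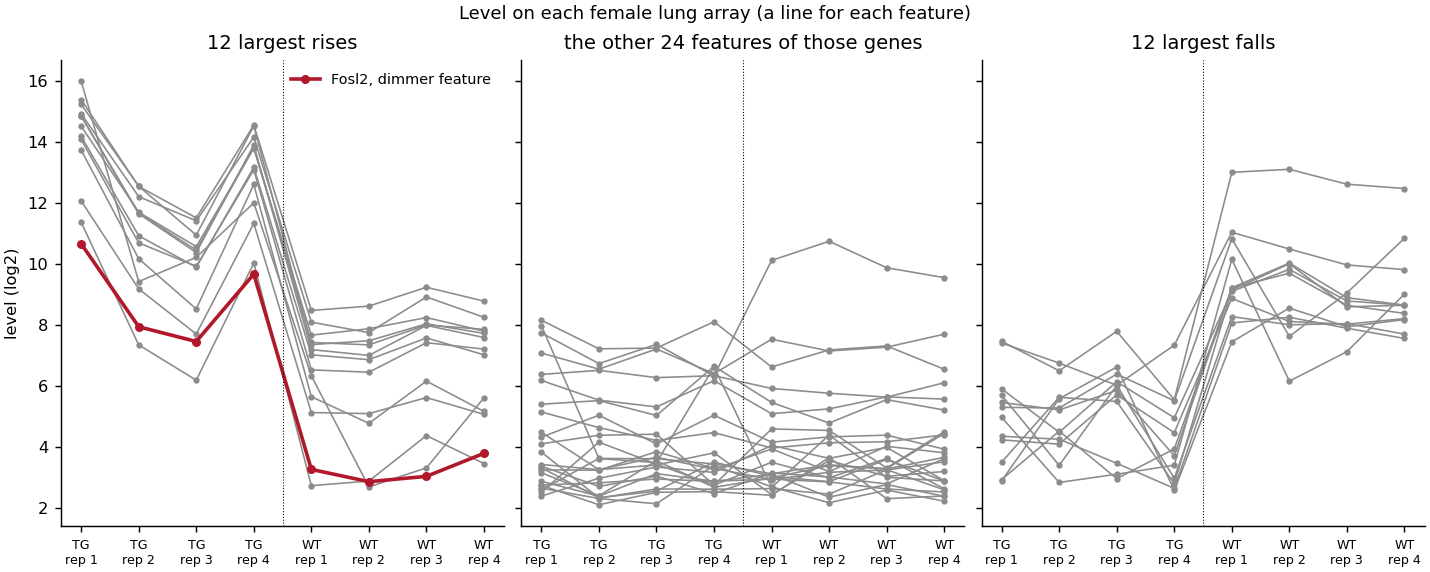
Log2 level in each of the 4 TG and 4 WT female arrays for the 12 largest rises and the dimmer Fosl2 feature, for the 24 other features of the same genes, and for the 12 largest falls. The rises follow the order of TG replicates 1, 4, 2 and 3 except for Clca1, and none of the other features was called higher.

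The largest falls were led by genes of NK cells. Gzma, granzyme A, a protease of cytotoxic granules, was at 7.46, 6.49, 7.78 and 5.54 in TG lungs, against 13.005, 13.1, 12.61 and 12.47 in WT lungs (-5.98 ± 0.45, adjusted p = 0.00173). Klra8, the activating receptor Ly49H, was at 2.92, 4.51, 2.95 and 3.92 in TG lungs, against 9.21, 9.69, 8.64 and 8.37 in WT lungs (-5.4 ± 0.42, adjusted p = 0.00183). Klrb1c, which encodes the NK1.1 antigen, was at 4.34, 4.24, 3.45 and 2.63 in TG lungs, against 8.06, 8.25, 7.89 and 7.55 in WT lungs (-4.27 ± 0.37, adjusted p = 0.00313). Every TG array read more than 3 units below every WT array in these genes, and TG replicates 1 and 4 did not stand apart. The other 9 were Klra23 (-4.75, adjusted p = 0.0119), Adipoq (-4.54, adjusted p = 0.0223), Klra4 (-4.14, adjusted p = 0.00761), Thrsp (-3.97, adjusted p = 0.0187), Klra7 (-3.73, adjusted p = 0.00611), Gzmb (-3.68, adjusted p = 0.00436), Grp (-3.62, adjusted p = 0.0381), Ccl4 (-3.49, adjusted p = 0.0233) and Mndal (-3.45, adjusted p = 0.00591). Of them Adipoq encodes the adipocyte hormone adiponectin, Thrsp a regulator of lipid synthesis, Grp a neuroendocrine peptide, Ccl4 a chemokine and Mndal an interferon-inducible nuclear protein. Of the 12 genes 5 had other features, and all 7 of these were called lower, with a median of -3.85.

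NK cell receptor genes were low as a group. Of 23 measured, 14 fell, where 4.23% of all genes did, and 1, Klra1 by its brightest feature, rose, with a median fold change of -2.04. Ncr1, the receptor NKp46 that marks NK cells, was at 3.66, 2.28, 2.9 and 3.04 in TG lungs, against 6.56, 6.65, 5.93 and 5.91 in WT lungs (-3.29 ± 0.31, adjusted p = 0.00436). Klrb1a, a relative of Klrb1c, was at 4.51, 3.39, 4.87 and 4.22 in TG lungs, against 7.84, 8.05, 7.53 and 7.32 in WT lungs (-3.44 ± 0.32, adjusted p = 0.00416). The inhibitory receptor gene Klra7 was at 5.9, 4.47, 6.13 and 4.95 in TG lungs, against 9.1, 9.82, 8.78 and 8.65 in WT lungs. All 3 were separated between the groups by more than 2 units. Genes of the Ly49 family are near-copies of each other, and a feature may detect several of them. The median over the list was -1.98, -1.82, -1.56 and -1.74 in TG replicates 1 to 4, so all TG arrays were low in similar measure. The count of lower members was between 8 (without WT replicate 1) and 15 when 1 array was left out and 9 without TG replicates 1 and 4. In RNA from whole lung, fewer NK cells and less RNA of these genes per cell cannot be told apart. Gzma, Klra8, Klrb1c, Klra23, Klra4, Klra7, Gzmb, Ncr1, Klrb1a and Mndal kept their calls in each of the 8 fits that left out 1 array, whereas the calls of Adipoq, Thrsp, Grp and Ccl4 were lost in at least 1 of them (highest adjusted p between 0.0629 and 0.104).

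**Figure D3:**
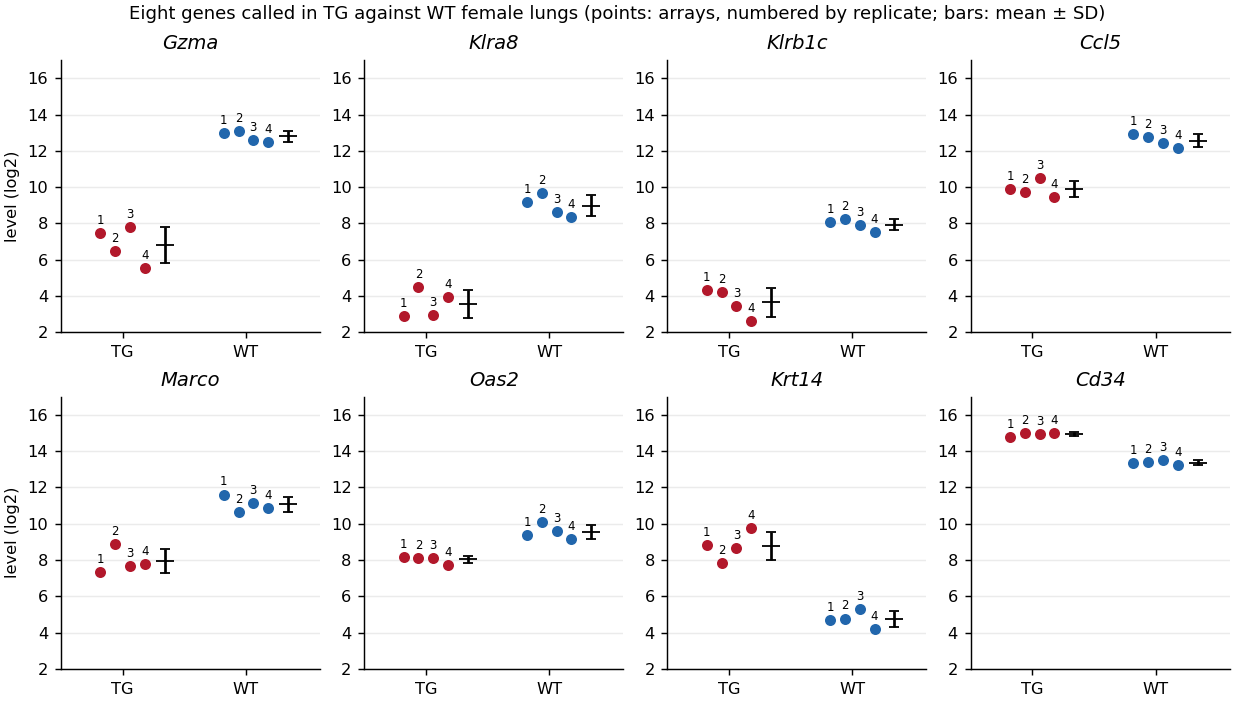
Log2 level of Gzma, Klra8, Klrb1c, Ccl5, Marco, Oas2, Krt14 and Cd34 in each female array, TG left of WT, with points numbered by replicate and bars for the mean ± SD (n = 4 each). The groups do not overlap in any of the 8 genes, as in nearly all called genes, and Krt14 and Cd34 are higher in TG lungs.

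Genes of cytotoxic granules followed, with 8 of 14 lower, where 4.23% of all genes were, none higher and a median of -1.13. Gzmb, granzyme B, was at 4.22, 4.08, 5.7 and 4.46 in TG lungs, against 8.86, 8.11, 8.02 and 8.2 in WT lungs (-3.68 ± 0.36, adjusted p = 0.00436). Nkg7, a granule membrane protein of cytotoxic lymphocytes, was at 7.86, 7.88, 8.15 and 6.67 in TG lungs, against 10.72, 10.78, 10.003 and 10.02 in WT lungs (-2.74 ± 0.35, adjusted p = 0.00986). Ctsw, cathepsin W, was at 6.24, 6.21, 6.22 and 6.29 in TG lungs, against 8.19, 8.08, 7.34 and 7.86 in WT lungs (-1.63 ± 0.20, adjusted p = 0.00902). TG levels of Ctsw lay within 0.1 unit of each other, whereas the medians of the list were -1.57, -1.09, -0.53 and -1.32 in the 4 TG arrays, smallest in replicate 3. The number of lower members was 4 to 9 with 1 array left out. Gzmb, Nkg7 and Ctsw kept their calls in each of the 8 fits that left out 1 array.

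Of 16 transcription factors that act in NK cell development none fell, and 3 rose: Zeb2 (0.79, adjusted p = 0.0278), Klf2 (0.80, adjusted p = 0.0344) and Ikzf3 (0.89, adjusted p = 0.0413). The median of the list was -0.28, and with the spread of all 16 arrays 3 were lower and 2 higher. Other features of Zeb2 and Ikzf3 had fold changes below 0, down to -0.83 and -0.86, none of them called. Tbx21, which encodes the factor T-bet, was at 2.82, 5.51, 4.49 and 2.33 in TG lungs, against 7.35, 6.49, 5.3 and 6.04 in WT lungs (-2.5 ± 0.71, adjusted p = 0.0616). It missed the threshold in females, with TG replicates 1 and 4 low and replicates 2 and 3 nearer to WT, and was lower in TG males (-2.89, adjusted p = 0.0231). The calls of Zeb2, Klf2 and Ikzf3 were lost in at least 1 of the 8 fits that left out 1 array (highest adjusted p between 0.0905 and 0.117).

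Chemokines known to recruit NK cells moved in both directions. Of 11 such genes, Ccl5, Cxcl10 and Ccl3 fell and Ccl9 rose, with a median of -0.0014 over the list. Ccl5, which is also a product of NK and T cells, was at 9.88, 9.71, 10.51 and 9.47 in TG lungs, against 12.95, 12.75, 12.43 and 12.14 in WT lungs (-2.67 ± 0.26, adjusted p = 0.00436). Cxcl10, an interferon-induced ligand of CXCR3, was at 5.04, 4.9, 6.34 and 5.98 in TG lungs, against 7.89, 7.38, 7.39 and 7.19 in WT lungs (-1.9 ± 0.34, adjusted p = 0.0202). Ccl3 was at 5.74, 4.56, 7.71 and 5.17 in TG lungs, against 7.93, 8.01, 8.62 and 8.33 in WT lungs (-2.43 ± 0.59, adjusted p = 0.0414). In each of the 3 the groups did not overlap, as in 1022 of the 1027 genes called lower. Ccl9, a ligand of CCR1, was at 11.67, 10.78, 11.32 and 11.39 in TG lungs, against 10.61, 10.05, 9.9 and 10.1 in WT lungs (1.13 ± 0.24, adjusted p = 0.0296). Ccl8 was at 11.34, 7.5, 10.73 and 9.49 in TG lungs, against 7.02, 7.51, 6.38 and 7.11 in WT lungs, a fold change of 2.76 ± 0.73, adjusted p = 0.0521, which missed the threshold. Its TG arrays differed among themselves by more than the fold change of Ccl9. The remaining 6 members, among them Ccl2, Ccl7, Ccl11 and Cx3cl1, were not called. Cxcl11, another ligand of CXCR3, was at the ceiling of the scale on its brightest feature, at 15.99, 15.998, 15.95 and 15.99 in TG lungs, against 15.69, 15.997, 15.998 and 15.56 in WT lungs. Its other feature was higher, at 11.73, 11.36, 11.08 and 11.48 in TG lungs, against 10.28, 10.59, 10.47 and 10.53 in WT lungs (0.95, adjusted p = 0.0229 over all features), and is not in the count of the list. Of 26 further chemokines 4 fell and none rose (median -0.37): Ccl4, Xcl1 (-1.74, adjusted p = 0.0211), Cxcl16 (-0.97, adjusted p = 0.0145) and Cxcl13 (-1.52, adjusted p = 0.0329). Xcl1 is made by NK and T cells, Cxcl16 by macrophages and Cxcl13 by stromal cells of B cell follicles. Ccl5 kept the call in each of the 8 fits that left out 1 array, whereas the calls of Cxcl10, Ccl3, Ccl9, Xcl1, Cxcl16 and Cxcl13 were lost in at least 1 of them (highest adjusted p between 0.0538 and 0.106).

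Alveolar macrophage genes were also low, with 8 of 17 lower, where 4.23% of all genes were, none higher and a median of -0.85. Marco, a scavenger receptor of these cells, was at 7.36, 8.89, 7.67 and 7.78 in TG lungs, against 11.61, 10.63, 11.17 and 10.87 in WT lungs (-3.14 ± 0.35, adjusted p = 0.00634). Cidec, a lipid droplet protein, was at 8.75, 9.14, 9.34 and 9.17 in TG lungs, against 11.52, 10.51, 10.7 and 11.04 in WT lungs (-1.84 ± 0.24, adjusted p = 0.0102). Lpl, lipoprotein lipase, had a fold change of -1.31, adjusted p = 0.013, although another of its features stood at 1.54 without being called. The groups did not overlap in these 3 genes, as in 1022 of the 1027 genes called lower. The number of lower members was 3 (without WT replicate 1) to 9 with 1 array left out and 1 without TG replicates 1 and 4. Medians of the list were -1.24, -0.96, -0.57 and -0.85 in the 4 TG arrays. Cidec, Fabp4 and Pparg are also on the adipocyte list, which was low in TG lungs and varied among WT arrays, and Cidec was the only one of these 3 that fell. Ear2 and Siglecf are also on the eosinophil list. Marco and Cidec kept their calls in each of the 8 fits that left out 1 array, whereas the call of Lpl was lost in at least 1 of them (adjusted p up to 0.0544).

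Of 10 eosinophil genes 4 fell, where 4.23% of all genes did, and none rose (median -0.36). Medians of the list were 0.17, -1.14, -0.71 and -0.38 in TG replicates 1 to 4, so that replicate 1 was not low. Ear6, an eosinophil-associated ribonuclease, was at 6.39, 6.1, 6.96 and 6.3 in TG lungs, against 8.49, 8.49, 8.6 and 8.28 in WT lungs (-2.03 ± 0.20, adjusted p = 0.00436). Ear2, which alveolar macrophages express as well, had a fold change of -1.6, adjusted p = 0.0129. Siglecf, a surface lectin of both cell types, was at 7.01, 8.31, 8.15 and 7.5 in TG lungs, against 9.28, 9.9, 9.78 and 9.17 in WT lungs (-1.79 ± 0.31, adjusted p = 0.0191). Ccr3, the eotaxin receptor, was at 4.33, 3.24, 3.48 and 4.87 in TG lungs, against 6.38, 6.66, 5.53 and 5.9 in WT lungs (-2.14 ± 0.39, adjusted p = 0.0211). The granule genes Epx and Prg2, which define eosinophils, were near the floor of the scale in both groups. By flow cytometry of lungs at this age, the paper reported more eosinophils and fewer alveolar macrophages in TG mice. The part of the 2 cell types in these falls of RNA was not tested. Ear6 and Ear2 kept their calls in each of the 8 fits that left out 1 array, whereas the calls of Siglecf and Ccr3 were lost in at least 1 of them (highest adjusted p between 0.0626 and 0.0733).

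Mast cell and basophil genes moved both ways, as 3 of 11 fell and 1 rose (median -0.65), where 4.23% and 4.01% of all genes did. The proteases Cma1 (-1.93, adjusted p = 0.0139) and Cpa3 (-2.22, adjusted p = 0.038) and the IgE receptor chain Fcer1a (-1.24, adjusted p = 0.0198) fell, whereas the tryptase Tpsb2 was at 9.48, 8.82, 8.58 and 9.75 in TG lungs, against 8.06, 6.95, 7.2 and 7.11 in WT lungs (1.83 ± 0.33, adjusted p = 0.0206). Among 15 dendritic cell genes, the maturation antigen Cd83 (-1.39, adjusted p = 0.0129), the growth factor receptor Flt3 (-1.08, adjusted p = 0.0203) and the integrin Itgae (-1.18, adjusted p = 0.0211) fell and the actin-bundling Fscn1 rose (1.34, adjusted p = 0.0304), with a median of -0.15. A second feature of Flt3 stood at 0.23 and was not called. Monocyte genes had 2 of 11 lower, Treml4 (-1.37, adjusted p = 0.0366) and Plac8 (-1.47, adjusted p = 0.0473), with a median of -0.46. The calls of Cma1, Cpa3, Fcer1a, Tpsb2, Cd83, Flt3, Itgae, Fscn1, Treml4 and Plac8 were lost in at least 1 of the 8 fits that left out 1 array (highest adjusted p between 0.0514 and 0.125).

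B and T cell genes showed no common direction. Cd22 (0.80, adjusted p = 0.0197) and Cd72 (1.21, adjusted p = 0.0289), inhibitory receptors of B cells, rose among 13 B cell genes (median 0.06), while another feature of each stood below 0, at -0.29 and -0.33. Of 19 T cell genes 1 rose and 1 fell (median 0.04). Of 9 plasma cell genes Irf4 fell (-0.90, adjusted p = 0.0434), with a median of -0.24. Of 15 neutrophil genes the G-CSF receptor gene Csf3r rose (0.80, adjusted p = 0.042), with a median of -0.62. Medians over the neutrophil list were -0.73, -0.88, 0.29 and -1.17 in the TG arrays, above WT in replicate 3 and below it in the other 3. Of 10 thymocyte genes the chemokine receptor Ccr9 (-1.68, adjusted p = 0.00867) and the terminal transferase Dntt (-1.14, adjusted p = 0.0267) fell (median -0.09). Ccr9 kept the call in each of the 8 fits that left out 1 array, whereas the calls of Cd22, Cd72, Irf4, Csf3r and Dntt were lost in at least 1 of them (highest adjusted p between 0.0661 and 0.118).

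Genes induced by type I interferon were low, with 8 of 22 lower, where 4.23% of all genes were, none higher and a median of -0.71. Oas2, an antiviral oligoadenylate synthetase, was at 8.16, 8.12, 8.13 and 7.75 in TG lungs, against 9.4, 10.07, 9.6 and 9.17 in WT lungs (-1.52 ± 0.22, adjusted p = 0.0128). Oasl1 was at 7.56, 7.14, 7.42 and 7.23 in TG lungs, against 8.65, 8.42, 8.66 and 8.45 in WT lungs (-1.21 ± 0.16, adjusted p = 0.00986). Rtp4 (-1.66, adjusted p = 0.0151) and Oas1a (-1.1, adjusted p = 0.0208) fell as well. The groups did not overlap in 14 of the 22 genes, always with TG lower, as was so for 2842 of all 24306 genes. The count of calls was 2 to 11 with 1 array left out and 1 without TG replicates 1 and 4. Medians of the list were -0.93, -0.60, -0.55 and -0.75 in the TG arrays. Oas2 and Oasl1 kept their calls in each of the 8 fits that left out 1 array, whereas the calls of Rtp4 and Oas1a were lost in at least 1 of them (highest adjusted p between 0.0559 and 0.0664).

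Ifng itself, the interferon of NK and T cells, was at 3.51, 3.53, 4.27 and 2.96 in TG lungs, against 6.04, 5.59, 5.39 and 5.25 in WT lungs (-2.0 ± 0.29, adjusted p = 0.013). On a list of 18 genes, made up of Ifng, its receptor gene Ifngr1 and genes of its response, 3 fell: Ifng itself, the GTPase gene Igtp (-1.49, adjusted p = 0.0411) and the guanylate-binding protein gene Gbp6. The guanylate-binding protein genes Gbp5 and Gbp9 rose (median -0.47). Medians over this list were -1.21, -0.28, 0.0023 and -0.71 in the TG arrays, so that TG replicate 3 was at the WT level and replicate 1 was lowest. Of 14 MHC class I genes B2m (-1.21, adjusted p = 0.0435) and the immunoproteasome subunit Psmb9 (-0.76, adjusted p = 0.0425) fell and H2-Q4 rose (0.82, adjusted p = 0.0347), with a median of -0.50. Of 12 MHC class II genes the peptide loader H2-DMa (-1.54, adjusted p = 0.0236) and the protease Ctss (-1.02, adjusted p = 0.0191) fell (median -0.48). MHC genes are near-copies of each other, and single features may detect several. The calls of Ifng, Igtp, B2m, Psmb9, H2-Q4, H2-DMa and Ctss were lost in at least 1 of the 8 fits that left out 1 array (highest adjusted p between 0.0508 and 0.114).

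In the IL-1 and IL-6 families 3 of 14 genes fell, where 4.23% of all genes did, and none rose (median -0.85). Medians of the list were -0.77, -1.05, -0.01 and -1.09 in TG replicates 1 to 4, with replicate 3 at the WT level. The number of lower members was 1 to 7 with 1 array left out, and the highest was without TG replicate 3. Il1a, which encodes the alarmin interleukin 1 alpha, was at 2.66, 3.02, 3.87 and 3.27 in TG lungs, against 5.04, 5.47, 5.6 and 5.88 in WT lungs (-2.29 ± 0.28, adjusted p = 0.00902). Il1rn, its receptor antagonist, was at 4.62, 4.88, 6.99 and 5.61 in TG lungs, against 7.36, 7.6, 7.77 and 7.36 in WT lungs (-2.0 ± 0.46, adjusted p = 0.0364). Il18 fell too (-1.01, adjusted p = 0.0318). Ligand and antagonist were thus both lower. Of 13 type 2 cytokine and receptor genes only Il25, an epithelial cytokine, passed the test (0.70, adjusted p = 0.0314; median -0.07). Among 15 genes of alternatively activated macrophages, Retnla, a secreted resistin-like protein, was at 15.997, 14.35, 14.27 and 15.6 in TG lungs, against 12.71, 12.33, 12.86 and 12.81 in WT lungs (2.38 ± 0.39, adjusted p = 0.0177). The list held 2 higher genes, Retnla and Fn1, and none lower, with a median of -0.05. Il1a kept the call in each of the 8 fits that left out 1 array, whereas the calls of Il1rn, Il18, Il25 and Retnla were lost in at least 1 of them (highest adjusted p between 0.0623 and 0.0985).

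Goblet cell and mucus genes were carried by TG replicate 1. Of 17 genes Clca1 and Pigr, the transporter of polymeric immunoglobulins, rose and none fell, with a median of 1.48. The medians of the list were 4.74, 0.40, 0.22 and 0.95 in TG replicates 1 to 4. Several members with a large difference in replicate 1 were then picked after their values were seen. Itln1, an intelectin, was at 15.99, 10.44, 11.16 and 12.26 in TG lungs, against 4.25, 6.76, 6.71 and 10.49 in WT lungs (5.41 ± 1.47, adjusted p = 0.0553). Muc5ac, the mucin of airway goblet cells, was at 9.97, 5.68, 4.27 and 5.5 in TG lungs, against 4.69, 4.1, 4.67 and 4.71 in WT lungs (1.81 ± 1.04, adjusted p = 0.297). Fcgbp, a mucus protein, was at 13.82, 5.92, 6.13 and 6.71 in TG lungs, against 5.47, 5.45, 5.56 and 6.05 in WT lungs (2.51 ± 1.57, adjusted p = 0.342). In each of them replicate 1 stood far above the other TG arrays, and none of the 3 was called. The same held for Agr2 (11.97, 6.38, 5.67 and 6.28 in TG lungs, against 5.61, 5.48, 4.78 and 8.09 in WT lungs), a disulfide isomerase of mucin folding, and Tff1 (11.17, 2.01, 2.82 and 3.91 in TG lungs, against 2.46, 2.45, 2.47 and 2.61 in WT lungs), a trefoil peptide. Muc5b had a fold change of 1.33, adjusted p = 0.454. The chitinase-like gene Chil4 was at 14.66, 4.62, 6.35 and 6.52 in TG lungs, against 7.02, 7.55, 8.35 and 6.23 in WT lungs, with a fold change of 0.75 that was -1.46 without TG replicate 1. Pigr was near saturation, at 15.998, 15.97, 15.77 and 15.996 in TG lungs, against 14.86, 14.68, 15.27 and 14.71 in WT lungs (1.05 ± 0.17, adjusted p = 0.0177). The calls of Clca1 and Pigr were lost in at least 1 of the 8 fits that left out 1 array (highest adjusted p between 0.0629 and 0.0716).

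**Figure D4:**
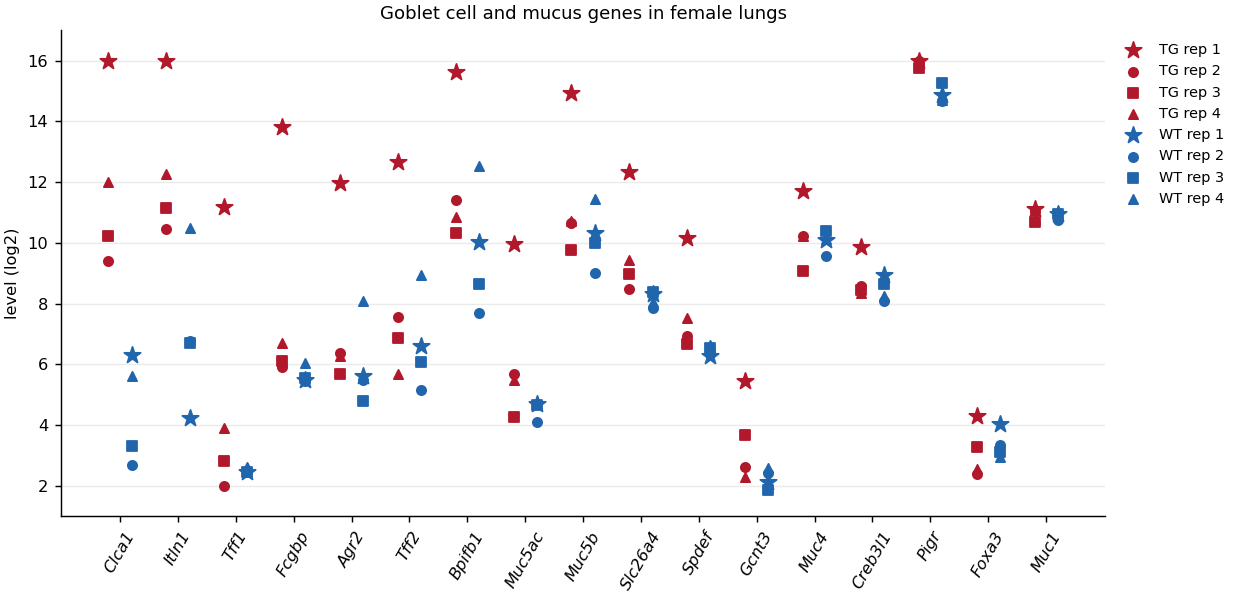
Log2 level of the 17 goblet cell and mucus genes in each of the 4 TG and 4 WT female arrays. TG replicate 1 is high in most of them, with a median of 4.74 above WT, against 0.40, 0.22 and 0.95 in TG replicates 2, 3 and 4.

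Other epithelial lists changed in few genes. Krt14, a keratin of basal cells, was at 8.85, 7.84, 8.66 and 9.74 in TG lungs, against 4.7, 4.78, 5.29 and 4.21 in WT lungs (4.03 ± 0.39, adjusted p = 0.00436). Trp63, the basal cell factor p63, had a fold change of 1.21, adjusted p = 0.0172, although 2 of its other features stood at -0.84 and -0.50. Neither of these 2 was called, and both lay near the floor except in WT replicate 4 (5.52 and 4.37). Krt14 and Trp63 were the only calls among 15 basal and squamous genes (median 0.26). No gene was called among 12 club cell genes (median 0.13) or 20 ciliated cell genes (median 0.44). Medians of the ciliated list were 1.2, 0.39, -0.23 and 0.53 in TG arrays, with replicate 1 highest as for mucus genes. Of 15 type 1 alveolar genes 2 fell, among them Emp2 (-0.97, adjusted p = 0.0427), with a median of -0.21. Of 16 type 2 alveolar genes 3 fell (median -0.21): the phosphate transporter Slc34a2 (-0.87, adjusted p = 0.0314) and the lipid synthesis genes Scd1 (-0.99, adjusted p = 0.0454) and Fasn (-0.76, adjusted p = 0.0489). The surfactant genes were at the ceiling of the scale, where a difference could not be seen. Krt14 kept the call in each of the 8 fits that left out 1 array, whereas the calls of Trp63, Emp2, Slc34a2, Scd1 and Fasn were lost in at least 1 of them (highest adjusted p between 0.0629 and 0.132).

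In the endothelium 3 of 22 genes rose and 1 fell (median -0.12). Nos3, the endothelial nitric oxide synthase, was at 11.61, 11.29, 11.42 and 11.22 in TG lungs, against 10.4, 10.11, 10.26 and 10.32 in WT lungs (1.11 ± 0.15, adjusted p = 0.0117). Kdr, the VEGF receptor 2, had a fold change of 0.86, adjusted p = 0.0334 and the secreted Egfl7 one of 0.72, adjusted p = 0.0296. Apln, the peptide apelin, was at 7.55, 9.01, 8.43 and 8.42 in TG lungs, against 10.41, 10.07, 10.42 and 10.49 in WT lungs (-2.0 ± 0.29, adjusted p = 0.0129). Cd34, an antigen of endothelial and stromal progenitors, was at 14.77, 15.02, 14.92 and 15.001 in TG lungs, against 13.35, 13.4, 13.51 and 13.22 in WT lungs (1.56 ± 0.14, adjusted p = 0.00416). The groups did not overlap in any of these genes, as in nearly all called genes. In 10 lymphatic genes the master factor Prox1 (1.76, adjusted p = 0.0126) and the growth factor Vegfc (0.80, adjusted p = 0.0474) rose and none fell (median 0.31). Each had another feature below 0, at -0.52 and -0.04. Neither was called, and that of Prox1 lay near the floor (3.21 in TG lungs, 3.74 in WT lungs). Nos3 and Cd34 kept their calls in each of the 8 fits that left out 1 array, whereas the calls of Kdr, Egfl7, Apln, Prox1 and Vegfc were lost in at least 1 of them (highest adjusted p between 0.0508 and 0.126).

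**Figure D5:**
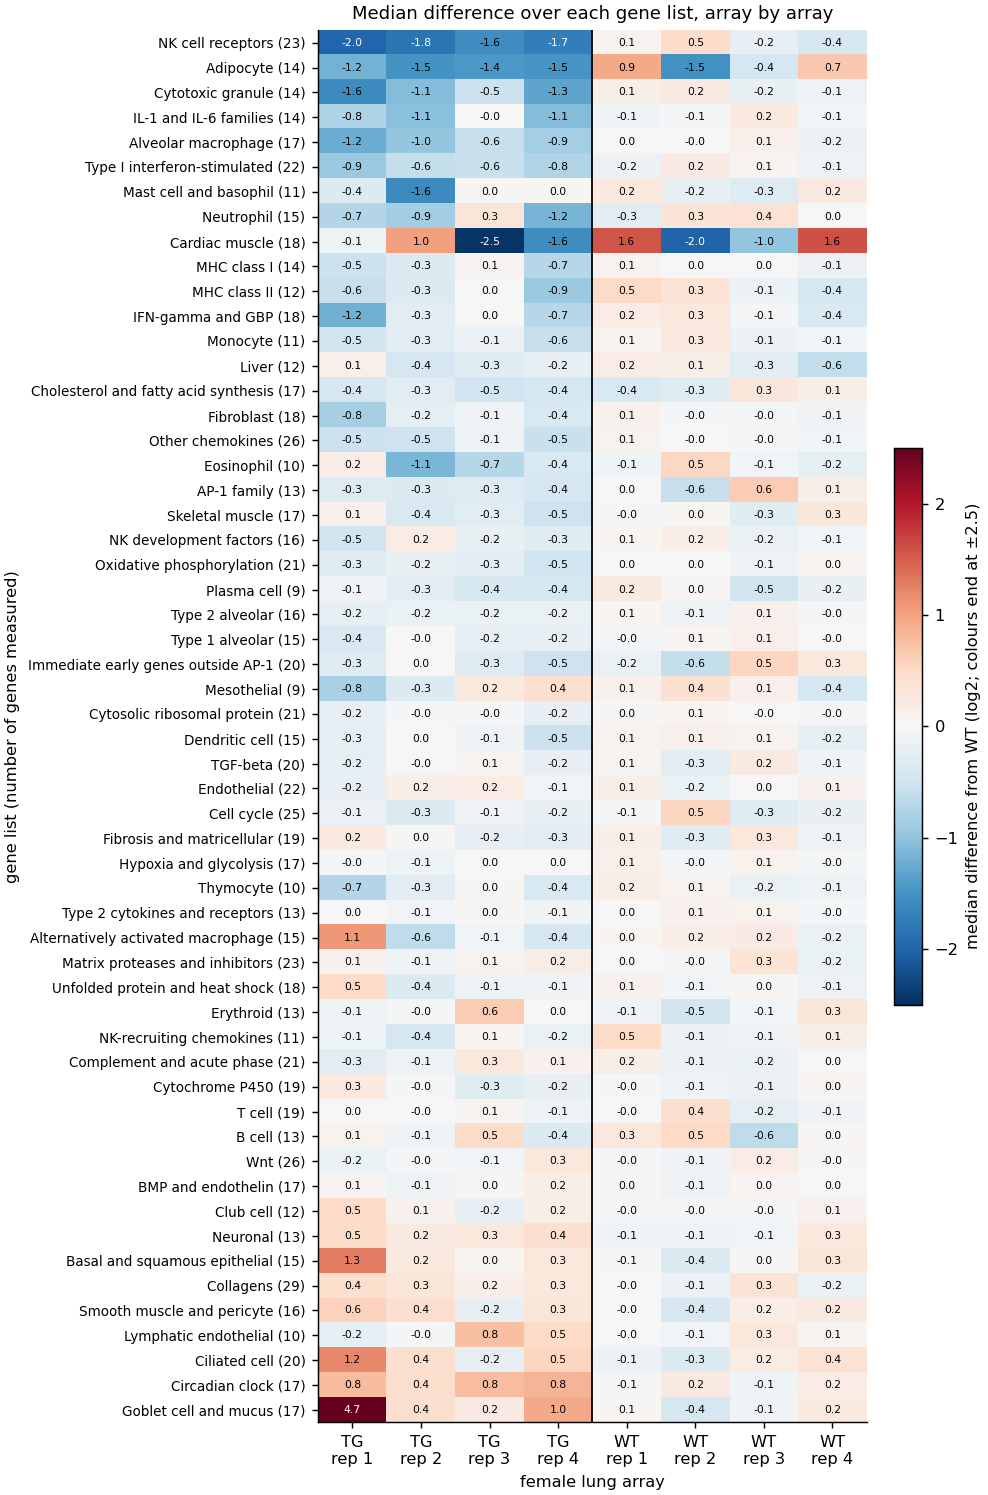
Median difference from WT, in log2 units, of each of 56 gene lists (rows) in each of the 4 TG and 4 WT female arrays (columns). NK receptor and adipocyte genes are low in all 4 TG arrays, goblet cell genes are high mainly in TG replicate 1, and cardiac muscle genes vary within both groups.

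Few matrix genes were called. Of 29 collagen genes 2 rose, of 23 matrix proteases and inhibitors 2 and of 19 fibrosis genes 3, where 4.01% of all genes did, and each count rests on 2 or 3 genes. Among the collagens Col15a1, a basement membrane collagen, was at 7.02, 5.43, 4.75 and 5.7 in TG lungs, against 2.89, 2.98, 3.35 and 3.47 in WT lungs (2.56 ± 0.43, adjusted p = 0.0177). Col1a2, a chain of fibrillar collagen I, was higher (0.97, adjusted p = 0.0279) and the transmembrane Col13a1 was lower (-0.99, adjusted p = 0.0454), with a median of 0.26. Among the proteases and inhibitors Mmp14 (1.01, adjusted p = 0.0295) and Timp2 (0.93, adjusted p = 0.0217) rose and none fell (median -0.04). The fibrosis genes that rose were fibronectin, Fn1, at 13.66, 13.06, 13.15 and 13.39 in TG lungs, against 12.32, 12.19, 12.51 and 12.21 in WT lungs (1.0 ± 0.18, adjusted p = 0.0197), the collagen cross-linker Loxl2 (1.08, adjusted p = 0.0289) and the latent TGF-beta binding protein Ltbp2 (0.75, adjusted p = 0.0409), with a median of -0.10. Of 20 TGF-beta genes 2 rose and the receptor gene Tgfbr1 fell (-0.92, adjusted p = 0.032; median -0.12). Another Tgfbr1 feature was called the other way (1.97, adjusted p = 0.0115 over all features), so its direction was not settled. Col15a1, Col1a2 and Timp2 also had another feature below 0, at -0.59, -0.04 and -0.41. The calls of Col15a1, Col1a2, Col13a1, Mmp14, Timp2, Fn1, Loxl2, Ltbp2 and Tgfbr1 were lost in at least 1 of the 8 fits that left out 1 array (highest adjusted p between 0.0629 and 0.12).

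Among 18 fibroblast genes Cd34 rose and dermatopontin, Dpt, fell (-0.89, adjusted p = 0.0499; median -0.38). Among 26 Wnt genes the co-receptor Lrp6 (1.28, adjusted p = 0.0172) and the inhibitor Sfrp2 (0.84, adjusted p = 0.048) rose (median 0.07). Of 16 smooth muscle and pericyte genes 1 rose and none fell (median 0.30), and none of 17 BMP and endothelin genes was called (median 0.12). Of 21 complement and acute phase genes 4 rose and 2 fell (median 0.01), where 4.01% and 4.23% of all genes did. The central component C3 was at 15.56, 15.06, 15.42 and 15.34 in TG lungs, against 14.28, 14.19, 14.82 and 13.92 in WT lungs (1.05 ± 0.22, adjusted p = 0.0289). C4b (1.45, adjusted p = 0.034), properdin, Cfp (0.73, adjusted p = 0.0296), and serum amyloid, Saa1 (0.94, adjusted p = 0.0433), were higher. The calls of Dpt, Lrp6, Sfrp2, C3, C4b, Cfp and Saa1 were lost in at least 1 of the 8 fits that left out 1 array (highest adjusted p between 0.0629 and 0.136).

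In the circadian clock 4 of 17 genes rose and 1 fell (median 0.48), where 4.01% and 4.23% of all genes did. Hlf (1.82, adjusted p = 0.0191) and Tef (1.2, adjusted p = 0.0279), output factors of the PAR family, and the repressor Cry1 (1.16, adjusted p = 0.0176) were higher, and the activator Arntl was at 6.23, 6.14, 6.53 and 4.81 in TG lungs, against 8.36, 7.11, 8.64 and 7.66 in WT lungs (-2.02 ± 0.44, adjusted p = 0.0328). Medians of the list were 0.79, 0.44, 0.76 and 0.84 in TG arrays. The hour of organ collection is not given in the sources used here, and its part was not tested. Another feature of Cry1 stood at -0.97 and another of Arntl at 0.08, neither called. Of 13 AP-1 family genes only Maf, a basic leucine zipper factor, passed the test (1.08, adjusted p = 0.0197; median -0.33), with another feature at -0.70. Of 20 other immediate early genes Klf2 rose and the stress gene Ier3 fell (-0.86, adjusted p = 0.0303; median -0.19). The calls of Hlf, Tef, Cry1, Arntl, Maf and Ier3 were lost in at least 1 of the 8 fits that left out 1 array (highest adjusted p between 0.0601 and 0.098).

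Adipocyte genes were low, with 6 of 14 lower, where 4.23% of all genes were, none higher and a median of -1.37. Adipoq was at 4.96, 2.82, 3.09 and 3.39 in TG lungs, against 10.15, 6.15, 7.12 and 9.01 in WT lungs (-4.54 ± 0.85, adjusted p = 0.0223). Cfd, the adipocyte protease adipsin, was at 10.57, 7.8, 10.28 and 9.77 in TG lungs, against 14.23, 11.09, 12.05 and 13.48 in WT lungs (-3.1 ± 0.78, adjusted p = 0.0454). Thrsp, a gene of fat synthesis that is not on the list, was at 5.29, 5.27, 6.38 and 5.5 in TG lungs, against 10.82, 7.62, 9.05 and 10.84 in WT lungs (-3.97 ± 0.68, adjusted p = 0.0187). Acvr1c, an activin receptor of fat cells, had a fold change of -1.44, adjusted p = 0.024. The groups did not overlap in these genes, as in nearly all called genes, but the WT arrays spread widely. The list median was -1.18, -1.5, -1.44 and -1.47 in TG arrays, against 0.94, -1.52, -0.44 and 0.67 in WT arrays. Each WT array was set against the mean of the other 3, so the 2 rows of medians have different baselines. By the mean level of the list, WT replicate 2 (7.08) lay near TG replicate 1 (7.06). It lay above TG replicates 2, 3 and 4 (6.07, 6.41 and 6.43). Between 1 and 4 members were lower with 1 array left out. Cardiac muscle genes varied even more and showed no call among 18 (median -0.59). Their medians were -0.13, 1.02, -2.46 and -1.56 in TG arrays, against 1.56, -2.01, -0.99 and 1.59 in WT arrays. Myh6, the atrial myosin chain, was at 12.38, 13.76, 8.17 and 10.24 in TG lungs, against 12.98, 9.09, 11.05 and 12.66 in WT lungs. The part of adhering fat in the fall of adipocyte genes was not tested. The calls of Adipoq, Cfd, Thrsp and Acvr1c were lost in at least 1 of the 8 fits that left out 1 array (highest adjusted p between 0.0629 and 0.12).

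The remaining lists held few calls. Of 17 cholesterol and fatty acid synthesis genes 3 fell, Fdps (-0.99, adjusted p = 0.0239) besides Scd1 and Fasn, and none rose (median -0.39). Of 19 cytochrome P450 genes the sterol hydroxylase Cyp27a1 (-1.91, adjusted p = 0.0129) and Cyp2e1 (-1.7, adjusted p = 0.0172) fell (median 0.04). The mesothelial antigen Msln rose (1.3, adjusted p = 0.0336) as 1 of 9 mesothelial genes (median -0.15). Of 21 oxidative phosphorylation genes cytochrome c, Cycs, fell (-0.60, adjusted p = 0.0423; median -0.27), and no cytosolic ribosomal protein gene of 21 was called (median -0.15). Of 25 cell cycle genes the replication clamp Pcna fell (-1.07, adjusted p = 0.0331; median -0.11). Of 18 unfolded protein and heat shock genes the chaperone Hsp90aa1 rose (1.08, adjusted p = 0.0473) and 1 fell (median -0.01). In 13 erythroid genes Ermap rose (0.94, adjusted p = 0.021) and 1 fell (median -0.01), and in 13 neuronal genes 1 rose (median 0.17). None of 17 hypoxia genes, 17 skeletal muscle genes or 12 liver genes was called (medians -0.10, -0.31 and -0.41). The calls of Fdps, Cyp27a1, Cyp2e1, Msln, Cycs, Pcna, Hsp90aa1 and Ermap were lost in at least 1 of the 8 fits that left out 1 array (highest adjusted p between 0.0508 and 0.125).

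Some genes were far from the other 6 arrays only in TG replicates 1 and 4. Among those above, Syn3 and Shank2 are given with the largest rises. Elovl6, a fatty acid elongase, was at 13.01, 9.74, 8.85 and 12.18 in TG lungs, against 8.79, 7.33, 8.13 and 7.8 in WT lungs (2.93 ± 0.86, adjusted p = 0.066). Among those below, Grp was at 2.88, 5.57, 6.61 and 2.56 in TG lungs, against 7.44, 8.55, 7.93 and 8.17 in WT lungs (-3.62 ± 0.85, adjusted p = 0.0381). G0s2, an inhibitor of lipolysis, was at 7.71, 10.13, 10.15 and 8.2 in TG lungs, against 10.96, 10.5, 10.51 and 11.1 in WT lungs (-1.72 ± 0.55, adjusted p = 0.0845). In these genes replicates 2 and 3 lay between the WT arrays and replicates 1 and 4. Cyp2d22 had a fold change of -1.77, adjusted p = 0.105. Like Elovl6 and G0s2 it missed the threshold.

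The male arrays gave 89 called genes, 39 higher and 50 lower, against 2001 in females. Of these 69 were called in both sexes, all in the same direction, and 1758 of the 2001 female calls had the same sign in males. For 331 of the 2001 the male groups were also separated in that direction. The share with the same sign over all genes was not counted. The median fold change in males was 0.37 over the genes called higher in females and -0.26 over those called lower. Gzma (-6.19, adjusted p = 0.00124), Klra8 (-5.05, adjusted p = 0.000543), Klrb1c (-4.05, adjusted p = 0.000543), Ncr1 (-2.92, adjusted p = 0.000579), Ccl5 (-2.74, adjusted p = 0.0194) and Marco (-2.2, adjusted p = 0.0299) were lower in TG males too, and Krt14 (3.39, adjusted p = 0.00277), Cd34 (1.55, adjusted p = 0.00859) and Nos3 (1.09, adjusted p = 0.0194) were higher. A test of the difference between the sexes, in a fit of all 16 arrays, called no gene, with a smallest adjusted p of 0.124, although 3125 genes had an unadjusted p under 0.05. The smallest adjusted p values were those of Prr7, Il1a, Pla2g4f, Cryba1 and Serpinb5. Prr7 had a fold change of 0.91 in females and -0.53 in males, and Il1a one of -2.29 in females and 0.38 in males. The lipase gene Pla2g4f stood at -1.96 in females and 0.68 in males, the crystallin gene Cryba1 at 1.51 in females and -0.44 in males, and the serpin gene Serpinb5 at 1.94 in females and -0.18 in males. No difference between females and males passed the test for any single gene. Of the largest rises in females, the fold changes in males were 4.49 for Clca1, 1.68 for Syn3 and 2.01 for Tbx22, none of them called there.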

How the data were processed

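Lung RNA of 16 mice, 4 per sex and genotype, was measured on single-colour Agilent arrays, and the 8 female arrays were analysed here. The deposited table holds log2 values which the authors, per their processing notes and methods, made with limma by background correction and quantile normalization. For the background method and annotation release, the sources used here give nothing. Labels and methods differ on the extraction kit and the dye. Of 62976 features 43941 carried 1 gene symbol, through RefSeq names where they matched. The other 19035 were left out, and 0 columns were unused. Of 24306 genes, 11040 had several features, and the one with the highest mean over 16 arrays was taken.

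The groups were compared with limma 3.58.1 in R 4.3.3 (lmFit and eBayes, 2 group means, 4 against 4 arrays), with Benjamini-Hochberg adjustment over all genes and a threshold of 0.05. The number of arrays limits the precision, levels near 16 are saturated, and labels name no animal, so that p-values measure the spread between these arrays. Males were fitted alone, and the difference between sexes came from all 16 arrays. The code was tested on simulated data. Promoters were those of RefSeq for GRCm38.p6. Lists have no test of their own, and their counts are to be read against the share called among all genes.

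Genes named were Fosl2, 3 sex check genes, the 12 largest rises and falls among called and separated genes, up to 4 called members of each of 56 lists by adjusted p or else up to 2 of the brightest, 11 NK-recruiting chemokines, genes with TG replicates 1 and 4 farthest from the other arrays, and up to 5 with the smallest p for a difference between sexes. Itln1, Tff1, Fcgbp, Muc5ac, Muc5b, Agr2, Chil4, Pkn3, Rnf183, Itga6 and Ildr2 were added after their values were seen. Members and lists were chosen with earlier results of these data known. Alternatives were the arrays that share the spread, a replicate block, the choice of feature, filters on dim genes, rescaling, eBayes options, array weights, thresholds, and each array or pair of TG arrays left out.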

Additional observations from a re-analysis of the deposited data

Results flagged for a closer look

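Within 1 group, a single array was far from the other 3 (a gap to the nearest array that filled most of the range of the group) for 16 of 292 groups of 4 values, over the 146 genes named in the text. Chance flags about 1 in 20 groups. The values are log2 levels. TG replicate 1 lay above the other 3 TG arrays in Fcgbp at 13.82 against 5.917 to 6.709 and Agr2 at 11.97 against 5.673 to 6.385. TG replicate 3 lay above the other 3 TG arrays in Ctss at 13.56 against 13.11 to 13.14. TG replicate 3 lay below the other 3 TG arrays in Ikzf3 at 8.929 against 9.637 to 9.714, Pigr at 15.77 against 15.97 to 16 and Ermap at 8.365 against 8.701 to 8.757. TG replicate 4 lay below the other 3 TG arrays in Oas2 at 7.747 against 8.121 to 8.158. WT replicate 1 lay above the other 3 WT arrays in Acvr1c at 4.558 against 3.456 to 3.488. WT replicate 2 lay above the other 3 WT arrays in Dntt at 5.948 against 5.11 to 5.235. WT replicate 3 lay above the other 3 WT arrays in Cxcl16 at 10.22 against 9.859 to 9.902, Ltbp2 at 11.63 against 11.05 to 11.07, Cldn24 at 5.61 against 5.058 to 5.119 and Itga6 at 12.56 against 12.31 to 12.35. WT replicate 4 lay above the other 3 WT arrays in Tff1 at 2.609 against 2.453 to 2.468. WT replicate 2 lay below the other 3 WT arrays in H2-Q4 at 13.41 against 13.77 to 13.82 and Muc5ac at 4.096 against 4.669 to 4.711. The gaps of Fcgbp and Agr2 in TG replicate 1 belong to the goblet cell and mucus genes, which were high in that array, while most of the others were smaller than 1 log2 unit.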

How the results depend on the processing

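Counts of calls moved by more than 1.5 times under many settings, against 974 genes higher and 1027 lower. With the spread of all 16 arrays 1737 were higher and 2188 lower, without the 8102 dimmest genes 1602 and 1909, under a stricter filter of this kind, at the median level, 1761 and 2132, and with an eBayes trend 1694 and 2028. Counted as genes with at least 1 called feature, 1578 were higher and 1583 lower. At an adjusted p under 0.01 there were 40 and 40, at 2-fold or more 557 and 542, and by separation of the arrays with no adjustment 2223 and 2842. Leaving out 1 array gave 65 (without WT replicate 1) to 1704 (without TG replicate 3) higher and 59 to 2100 lower. Without TG replicates 1 and 2 the counts were 22 and 35, without 1 and 4 they were 112 and 91, without 2 and 4 they were 10 and 17, and without 2 and 3 they were 2050 and 2689. Leaving out arrays could hardly turn the direction of a gene called on these same arrays. The directions of the named genes that were called turned only where another feature of the gene was taken on its own. These fold changes were Maf (-0.7016), Klra1 (-3.034), Ikzf3 (-0.4004, -0.8597), Zeb2 (-0.0741, -0.8264, -0.2909), Lpl (1.542), Flt3 (0.2283), Cd22 (-0.2858), Cd72 (-0.3259), Trp63 (-0.8389, -0.4986), Prox1 (-0.5218), Vegfc (-0.04203), Col15a1 (-0.5901), Col1a2 (-0.04486, -0.06481), Timp2 (-0.4136), Tgfbr1 (1.968), Cry1 (-0.967), Arntl (0.08217), Syn3 (-0.672, -0.5829, -0.3225), Tbx22 (-0.1664), Shank2 (-0.2432), Cdcp1 (-0.6017), Opcml (-0.218, -0.07326) and Ddx25 (-0.05259), of which those of Klra1 and Tgfbr1 passed the test. Some of these features, such as those of Trp63, Prox1 and Col15a1, lay near the floor in most arrays. The cause was not tested. Genes that were not called also changed sign. With 1 array left out Fosl2 reached 0.304, Chil4 1.887 and Myh6 -1.176 at the other end of their range. Fosl2 stood at -0.04692 without TG replicate 1, -0.002376 without WT replicate 2, -0.07897 without TG replicates 1 and 3 and -0.08123 without TG replicates 1 and 4. Tff1 stood at -0.08586 without TG replicates 1 and 4. Agr2 stood at -0.009793 without TG replicates 1 and 2. Chil4 stood at -0.2387 with array weights, -1.459 without TG replicate 1, -0.854 without TG replicates 1 and 2, -1.72 without TG replicates 1 and 3 and -1.802 without TG replicates 1 and 4. Cxcl11 stood at -0.009515 with cyclic loess. Myh6 stood at 0.05567 with the mean of all features, 0.6848 without TG replicate 3, 0.208 without WT replicate 1, 0.1011 without WT replicate 4, 0.5581 without TG replicates 1 and 3 and 1.626 without TG replicates 3 and 4, and at 0.415 on another feature. Of 131 called named genes, 5 lost the call with all 16 arrays, 6 with cyclic loess, 2 with rescaling to the brighter genes, 28 with the mean of all features and 1 with array weights. With the replicate number as a block 8 genes were higher and 19 were lower, and 112 named genes lost the call. Deviations of same-numbered TG and WT arrays correlated at -0.02, 0.01, -0.04 and -0.05, and those of differently numbered arrays at -0.11 to 0.13. So few values cannot decide whether same-numbered arrays share more than a number. No label says what the number stands for, and its part in the loss of calls was not tested. With 4 arrays against 4, an exact permutation test cannot go below a two-sided p of 0.0286. Levels near the ceiling, such as those of Pigr and the surfactant genes, can hide a rise, and levels near the floor, such as those of Epx and Prg2, can hide a fall.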
